A study of Mus musculus with 19 samples.

Results

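Poly(PR) is a dipeptide repeat protein of alternating proline and arginine, and its effect on transcripts was measured across all genes in 7 mouse brains that expressed it and 4 brains that expressed GFP alone. The 11 libraries were chosen by their labels, out of 19 in the series, as the poly(PR) group and the controls of the same harvest. The tested mice carried AAV-GFP-(PR)50, a vector for GFP joined to 50 proline-arginine repeats (4 female, 3 male), and the controls carried AAV-GFP (3 female, 1 male). All were C57BL/6 mice, given 2 µl of AAV1 into each cerebral ventricle on the day of birth and taken at 3 months, and each library is a homogenate of hippocampus and cortex from 1 mouse. The other 8 libraries, 4 with AAV-GFP-(GR)100, which carries glycine-arginine repeats, and 4 with AAV-GFP from their own harvest, are used below only for values side by side. The sources used here do not give the promoter of the vectors or the share of cells transduced, and the controls share the virus, the injection and GFP but not a repeat protein.

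Dipeptide repeat proteins are translated from the expanded hexanucleotide repeat in C9orf72, a frequent inherited cause of amyotrophic lateral sclerosis and frontotemporal dementia. Poly(PR) and poly(GR) carry many positively charged arginines, enter the nucleus and nucleolus, and are toxic to neurons in many models. The series title names heterochromatin, its binding protein HP1α and double-stranded RNA, so transcripts of those systems and of repeats are described with the cell types and pathways of the brain.

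The 11 libraries held 26934239 to 40770203 reads on genes. Marker genes of neurons, astrocytes, oligodendrocytes, microglia, endothelium, hippocampus and cortex were detected in all 11. Transcripts of the striatum, a region that the tissue label does not name, were present too: Drd2, the dopamine receptor of striatal neurons, had 58.3 to 93.0 CPM (a gene's reads relative to the scaled size of its library) in poly(PR) brains and 38.5 to 55.6 CPM in controls. Ttr, the main transcript of the choroid plexus, had 1.02 to 518 CPM in poly(PR) brains and 41.7 to 160 CPM in controls. The mitochondrial share of gene reads fell into 2 ranges that crossed the groups: 4.76% to 6.34% in poly(PR) replicates 1, 4 and 5 and controls 1 and 4, and 3.72% to 4.15% in poly(PR) replicates 2, 3, 6 and 7 and controls 2 and 3. Values within each of these sets, and the difference between the controls of higher and of lower share, are given beside several results below. Poly(PR) replicate 6 stood apart from the other 6 in 2 library measures and in consistency over genes, and many results are given without it as well.

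Adjusted p-values under 0.05, by the quasi-likelihood test of edgeR with a sex term and the Benjamini-Hochberg method, were reached by 11 of 19156 genes (0.0574%). The 7 that rose (0.0365%) were Tcf24, Lag3, Clec7a, Ccl6, Gfap, Hist1h1c and C4b, and the 4 that fell (0.0209%) included Dkk3, Gfra2 and Zdhhc22. The data below that threshold are far broader: an unadjusted p under 0.05, called nominal from here on, was found for 1463 genes with higher values (7.64%) and 1400 with lower values (7.31%) in poly(PR) brains, 14.9% in all. Higher genes made up 51.1% of the nominal ones. That share was 45.8% with DESeq2's size factors, 62.8% with TMM factors taken before the filter on low counts, 57.5% with no filter and 58.5% in the female libraries alone. The median log2 fold change over all genes was 0.01, and the scaling alternatives moved it by at most 0.016. The count of adjusted calls depended on single libraries: it was 617 without poly(PR) replicate 6, 0 when a control or replicate 3 or 4 was left out, and 1 or 2 when replicate 1, 2, 5 or 7 was. Nominal calls also rose without replicate 6, to 2661 higher and 3234 lower of 18939 genes. Among protein-coding genes these were 15.1% and 19.4%. Counts given below without replicate 6 have that larger background.

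All 7 poly(PR) libraries lay above all 4 controls for 266 genes (1.39%) and below all 4 for 253 (1.32%). Replicate 6 was the library that most often broke this pattern. Of 475 genes with 6 of 7 libraries above the controls, it was the exception in 196 (41.3%), while each other library was the exception in 7.79% to 12%. Of 414 genes with 6 of 7 below, it was the exception in 177 (42.8%), against 6.76% to 15.9% for each of the others. Replicate 6 lay above all controls for 2433 genes and below for 2695, and replicate 5, at the other end, for 6047 and 5679. Measured as the median absolute log2 difference from the control mean, replicates 4 and 5 stood farthest away, at 0.239 and 0.251, followed by replicates 1 and 3 at 0.175 and 0.160. Replicates 2, 6 and 7, at 0.111, 0.100 and 0.104, were no farther from the control mean than the controls themselves, which had 0.112, 0.123, 0.136 and 0.156. A control is counted in that mean and a poly(PR) library is not, which favours lower values for the controls. The median SD of log2 values between libraries was 0.168 in poly(PR) brains and 0.177 in controls.

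**Figure D1:**
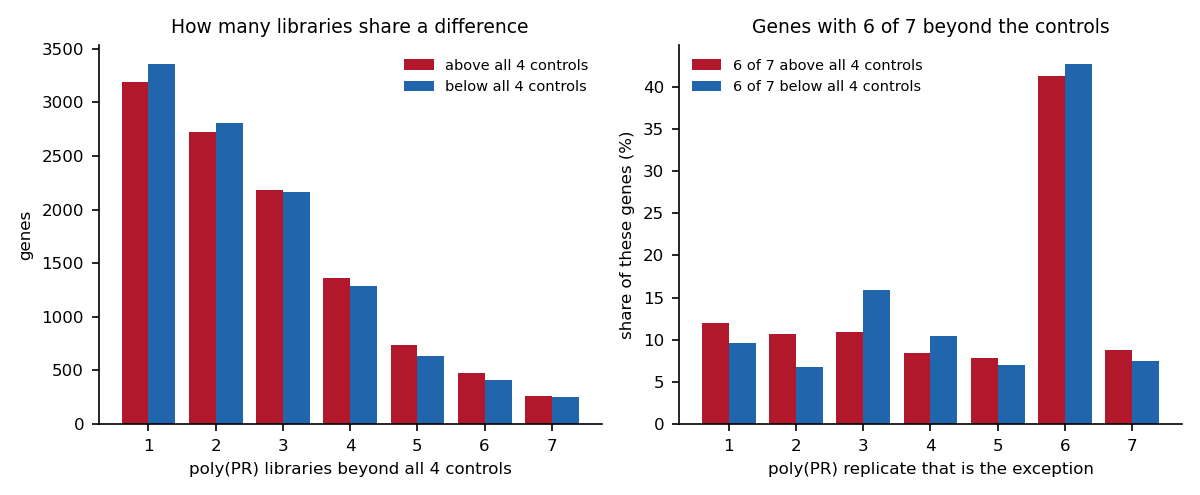
Left, the number of genes (vertical axis) for which 1 to 7 poly(PR) libraries lie above (red) or below (blue) all 4 GFP controls; 266 genes have all 7 above and 253 have all 7 below. Right, for genes with exactly 6 of 7 libraries beyond the controls, the percentage in which each replicate is the exception; replicate 6 accounts for 41.3% of the genes above and 42.8% of those below.

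The direction of the differences followed the level of expression. Genes with low to middling levels were more often higher in poly(PR) brains, and the most abundant ones were more often lower. Among 3729 genes with a mean under 1 CPM, 6.01% were nominally higher and 3.00% lower, with a median log2 fold change of 0.07. The filter on low counts asks for 4 libraries over a minimum level. Any 4 of the 7 poly(PR) libraries can meet it, but among controls only all 4 together. It can therefore favour higher genes in this tier. Among 4945 genes at 1 to 10 CPM, 615 were nominally higher (12.4%) and 218 lower (4.41%), and the median was 0.08. The 8177 genes at 10 to 100 CPM were near balance, with 7.07% higher and 7.94% lower. At 100 CPM and over the direction turned: 46 of 2305 genes were nominally higher (2.00%) and 421 lower (18.3%), 30.4% had a log2 fold change above 0, and the median was -0.08. In that tier 8 genes had all 7 libraries above the controls and 88 had all 7 below, against 132 and 40 at 1 to 10 CPM. Without replicate 6 the abundant tier had 7.16% nominally higher and 37.4% lower, against 15.1% and 19.4% of protein-coding genes. With levels taken per kilobase of exon, the highest of 4 equal bins still held more lower than higher genes (12.3% lower, 4.85% higher), and the lowest bin more higher ones (7.71% higher, 3.53% lower).

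Annotated gene span, the distance from start to end of a gene with its introns, gave a gradient of the same kind. With genes split by span into 4 bins of 4784, the shortest bin, up to 6255 bases, had 9.24% nominally higher and 3.70% lower, with a median log2 fold change of 0.10. In the longest bin, from 50358 bases, 3.36% were higher and 13.9% lower, with a median of -0.10. Span and level added up: of 852 genes in the longest bin with 100 CPM or more, 92 (10.8%) had a log2 fold change above 0, 239 (28.1%) were nominally lower, and the median was -0.17. The long-gene gradient moved with the mitochondrial share as well as with the group. The longest bin's median difference from the control mean was -0.09, -0.03, -0.13, -0.18, -0.17, 0.04 and 0.00 in poly(PR) replicates 1 to 7, against -0.08, 0.09, 0.10 and -0.11 in controls 1 to 4. Replicates 1, 4 and 5 and controls 1 and 4, the libraries of higher share, were all below 0 here. Poly(PR) minus control was -0.05 within the set of higher share and -0.12 within the set of lower share, and controls of higher share minus controls of lower share gave -0.18. Without replicate 6, 35.0% of the longest bin were nominally lower, against 19.4% of protein-coding genes. The abundant tier moved with the share to a smaller extent: controls of higher share minus controls of lower share gave -0.04, and its median group difference was -0.08 within each set. It lay at -0.10, -0.07, -0.06, -0.12, -0.11, -0.03 and -0.06 in poly(PR) replicates 1 to 7 against -0.04, 0.03, 0.02 and -0.01 in the controls. Only replicate 6 of the poly(PR) libraries reached the range of the controls in that tier. The low tiers moved with the share too: controls of higher share minus controls of lower share gave 0.06 at 1 to 10 CPM and 0.04 under 1 CPM. Within the sets of higher and lower share, poly(PR) minus control was 0.06 and 0.06 at 1 to 10 CPM. Under 1 CPM it was 0.05 and 0.03. Replicate 6 lay within the range of the controls at 1 to 10 CPM, and replicates 3, 5, 6 and 7 under 1 CPM.

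**Figure D2:**
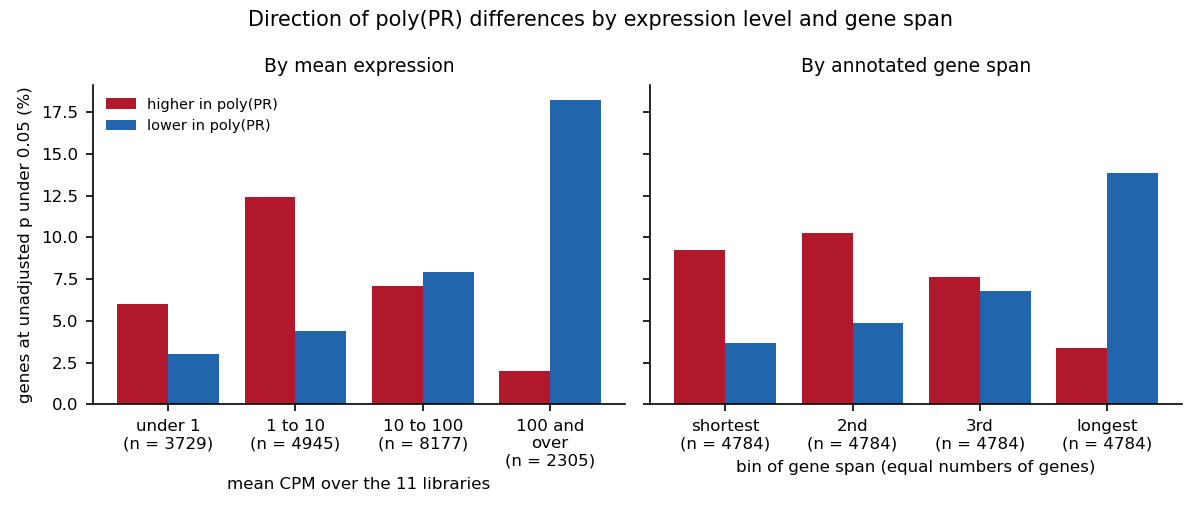
Percentage of genes at an unadjusted p under 0.05 (vertical axes) that are higher (red) or lower (blue) in poly(PR) brains, by mean CPM over the 11 libraries (left) and by bin of annotated gene span (right), with the number of genes tested under each pair of bars. At 100 CPM and over 2.00% are higher and 18.3% lower, and in the longest bin 3.36% and 13.9%.

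In each tier the genes with the smallest p among those separated in all 11 libraries name what moved. The 3 values for poly(PR) brains below are the lowest, median and highest of the 7 libraries, and 4 values for controls are controls 1 to 4. Under 1 CPM, Ccl3, a chemokine made by activated microglia (ENSMUSG00000000982, GRCm38 chromosome 11, 83647844 to 83649355), had 0.653, 1.12 and 1.46 CPM in poly(PR) brains and 0.550, 0.329, 0.172 and 0.232 CPM in controls (difference on the log2 scale 1.72, SE 0.34, adjusted p = 0.0937). Fgr, a Src-family kinase of myeloid cells, had 0.235, 0.464 and 0.943 CPM against 0.0344, 0.0658, 0.172 and 0.0387 CPM (2.64, SE 0.51). Both groups of values were low but did not overlap for either gene. Fgr passed the filter on low counts through its poly(PR) libraries alone. Ccl3, and Tcf24, Ccl4, Cst7 and Itgax below, also needed poly(PR) libraries to pass it. Not all 4 of their controls reached its minimum level. Lower in this tier was Xirp2, an actin-binding protein best known from muscle (chromosome 2, 67446002 to 67526614), with 0.309, 0.399 and 0.588 CPM in poly(PR) brains and 0.859, 0.954, 0.862 and 0.851 CPM in controls (-1.15, SE 0.20, adjusted p = 0.0852).

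At 1 to 10 CPM, Tcf24, a basic helix-loop-helix factor, had 1.31 to 2.85 CPM in poly(PR) brains and 0.197 to 0.481 CPM in controls, a log2 fold change of 2.57 (SE 0.27, adjusted p = 0.00996), and replicate 6 was its highest library. It rose in all 7 libraries beyond every control, as did Clec7a and Ccl6 in the same tier. Zfp189, a zinc finger protein, was lower, at 6.27, 8.83 and 9.61 CPM in poly(PR) brains and 10.27, 13.43, 14.03 and 12.02 CPM in controls (-0.63, SE 0.12, adjusted p = 0.0901). At 10 to 100 CPM, Hist1h1c, a linker histone gene, had 34.1, 38.7 and 52.1 CPM in poly(PR) brains and 24.73, 21.95, 18.03 and 22.89 CPM in controls (0.90, SE 0.12, adjusted p = 0.0429), and Gfra2, the neurturin co-receptor, had 46.4, 48.4 and 53.6 CPM against 61.9 to 72.6 CPM. Adra1d, an alpha-1 adrenergic receptor, was lower without passing the adjustment, at 8.70, 11.9 and 15.4 CPM in poly(PR) brains and 16.4, 22.1, 21.2 and 18.6 CPM in controls (-0.77, SE 0.13, adjusted p = 0.0790).

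At 100 CPM and over, Gfap, the intermediate filament of astrocytes, rose to 336, 487 and 589 CPM in poly(PR) brains, against 185 to 305 CPM in controls. The other abundant genes that were higher in all 7 libraries were led by striatal ones: Penk, the enkephalin precursor (chromosome 4, 4133531 to 4138819), had 339, 374 and 537 CPM against 280, 241, 239 and 294 CPM (0.66, SE 0.11, adjusted p = 0.0616). Gng7, a G protein subunit enriched in striatum, had 342, 372 and 483 CPM against 312, 276, 288 and 327 CPM (0.41, SE 0.08). The abundant genes that were lower included neuronal ones. Dkk3 had 172, 203 and 222 CPM in poly(PR) brains and 260 to 314 CPM in controls, and Rph3a, the vesicle protein rabphilin (chromosome 5, 120940499 to 121010092), had 271, 294 and 314 CPM against 390, 370, 361 and 382 CPM (-0.35, SE 0.06, adjusted p = 0.0852). Clstn1, the synaptic adhesion protein calsyntenin-1 (chromosome 4, 149586468 to 149648899), had 1017, 1066 and 1134 CPM against 1377, 1261, 1237 and 1305 CPM (-0.27, adjusted p = 0.109). Vsnl1, a neuronal calcium sensor (chromosome 12, 11325242 to 11436613), had 500, 558 and 622 CPM against 694, 680, 688 and 693 CPM (-0.30, SE 0.06, adjusted p = 0.109). In these 3 genes each poly(PR) library lay below every control although the differences were small.

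**Figure D3:**
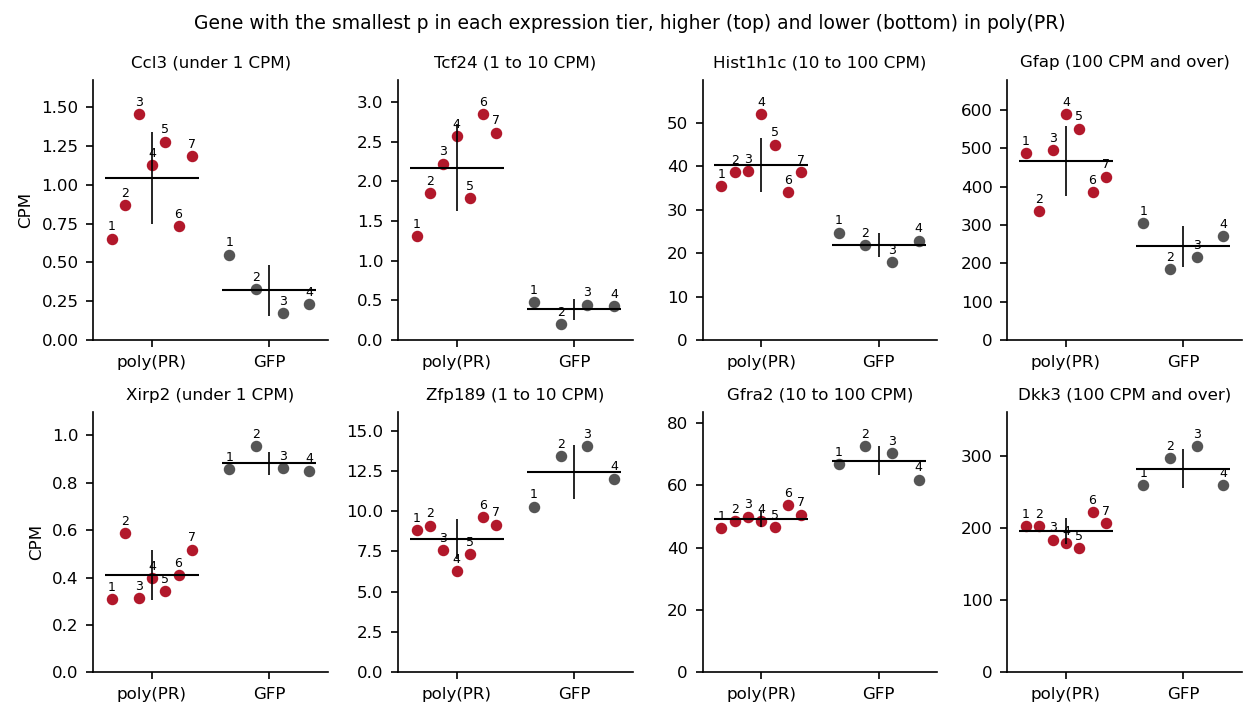
CPM (vertical axes) of the gene with the smallest p in each expression tier among those with all 7 poly(PR) libraries beyond all 4 controls, higher (top) and lower (bottom); points are libraries numbered by replicate, horizontal lines group means and vertical lines 1 SD. No poly(PR) library overlaps a control in any of the 8 genes; Gfap lies at 336 to 589 CPM with poly(PR) and 185 to 305 CPM with GFP.

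By biotype, protein-coding genes were balanced and long non-coding RNAs leaned upward. Of 15284 protein-coding genes 1226 were nominally higher (8.02%) and 1258 lower (8.23%), with a median log2 fold change of 0.00. Of 2196 long non-coding RNAs 184 were higher (8.38%) and 86 lower (3.92%), with a median of 0.06, so their share of higher genes was near the 7.64% of all genes and their share of lower genes was below the 7.31%. At 1 to 10 CPM 11.3% of long non-coding RNAs, 13.8% of protein-coding genes and 3.125% of processed pseudogenes were nominally higher, and 4.37%, 4.46% and 2.34% lower. Under 1 CPM 6.09% of long non-coding RNAs and 8.74% of protein-coding genes were nominally higher. Over all levels processed pseudogenes had 17 higher and 17 lower of 551. The share of all gene reads that fell on long non-coding RNAs was 1.502% to 1.855% in poly(PR) brains and 1.48% to 1.67% in controls (exact two-sided permutation test, p = 0.624), and 0 of the biotype shares passed adjustment over the biotypes. Over the autosomes, medians ran from -0.09 on chromosome 18, which carries the protocadherin clusters, to 0.06 on chromosomes 7 and 17.

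Among non-coding genes, Snhg1, host gene of several small nucleolar RNAs (chromosome 19, 8723475 to 8726443), had 11.8, 14.4 and 16.5 CPM in poly(PR) brains and 9.72, 8.13, 8.21 and 10.4 CPM in controls (0.68, SE 0.11, adjusted p = 0.0561). The annotation shares 21.0% of its exonic bases with another gene, and the counts keep no strand. Of 12 small nucleolar RNA host genes 11 had log2 fold changes above 0, with a median of 0.32, and 5 were nominally higher and 1 lower. Controls of higher mitochondrial share exceeded those of lower share by 0.28 in this list, while poly(PR) minus control was 0.32 and 0.27 within the sets of higher and lower share. Snhg15 had 3.76, 5.81 and 9.32 CPM in poly(PR) brains and 3.12, 2.57, 2.90 and 3.71 CPM in controls (1.11, SE 0.22, adjusted p = 0.0937). Snhg17 had 13.63, 14.86 and 16.96 CPM against 12.2, 11.8, 10.4 and 11.8 CPM (0.37, SE 0.08). Outside that family, the unnamed locus Gm32391 (chromosome 1, 164462442 to 164463989) was at 2.78, 3.16 and 3.25 CPM in poly(PR) brains and 1.86, 2.11, 1.93 and 2.24 CPM in controls (0.62, SE 0.11, adjusted p = 0.0852). Gm37459 (chromosome 3, 32939314 to 32983301) was at 13.2, 16.5 and 17.1 CPM against 20.2, 22.9, 21.3 and 21.3 CPM (-0.46, SE 0.08, adjusted p = 0.0841). In these 5 RNAs no poly(PR) library overlapped a control, which for Snhg1, Gm32391 and Gm37459 was a condition of being named. Of the 2196 long non-coding RNAs, 37 (1.685%) had all poly(PR) libraries above all controls and 21 (0.956%) had all below.

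Microglial transcripts split between 2 states. Microglia, the resident macrophages of the brain, take on a disease-associated profile near damaged or dying neurons, in which lysosomal, lipid and phagocytic genes are induced. Of 22 genes of that profile 20 had log2 fold changes above 0, with a median of 0.40, and 16 (72.7%, against 7.64% of all genes) were nominally higher and 0 lower. Of these, Clec7a, the receptor dectin-1, and Ccl6, a chemokine, passed the adjustment over all genes. Of 15 genes of homeostatic microglia 9 were above 0, with a median of 0.09, 2 nominally higher and 2 lower. In bulk homogenate a changed number of cells of a type and a changed amount of RNA per cell cannot be told apart.

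Cst7, a cysteine protease inhibitor of disease-associated microglia, had 0.804, 1.13 and 2.45 CPM in poly(PR) brains and 0.687, 0.230, 0.276 and 0.193 CPM in controls (2.21, SE 0.41, adjusted p = 0.0901). Itgax, the integrin CD11c, had 0.959, 1.62 and 3.54 CPM against 0.515, 0.263, 0.931 and 0.309 CPM (2.00, SE 0.40). For both genes the lowest poly(PR) library was only just above the highest control. Trem2, the lipid-sensing receptor of microglia, had 22.7, 27.7 and 34.4 CPM in poly(PR) brains and 21.5, 14.9, 17.2 and 23.8 CPM in controls (0.64, SE 0.13, adjusted p = 0.109), with 5 of 7 libraries above every control. Tmem119, a marker of resting microglia, was at 20.42, 22.99 and 25.08 CPM in poly(PR) brains and 26.3, 24.5, 26.6 and 28.5 CPM in controls (-0.20, SE 0.07, adjusted p = 0.262). It does not stand for the homeostatic list, in which 9 genes lay above 0 and 6 below. Of the microglial markers Cx3cr1 and P2ry12, the first had a log2 fold change of 0.17 (SE 0.09) and the second -0.15 (SE 0.08). The level of the disease-associated list, its members' mean log2 difference from the control mean, was 0.47, 0.28, 0.67, 0.64, 0.58, 0.29 and 0.44 in poly(PR) replicates 1 to 7 and 0.12, -0.15, -0.04 and 0.07 in controls 1 to 4. All 7 poly(PR) libraries, replicate 6 among them, lay above all 4 controls. Without replicate 6, 18 of the 22 were nominally higher and 11 passed the adjustment over all genes, where 289 of all 18939 genes were called higher. Within the sets of higher and lower mitochondrial share the list's median difference was 0.31 and 0.41.

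Reactive astrocyte genes were higher while homeostatic astrocyte genes were not. Of 12 reactive astrocyte genes 9 had log2 fold changes above 0, with a median of 0.34, and 6 were nominally higher and 0 lower. Serpina3n, a protease inhibitor of reactive astrocytes, had 17.7, 20.3 and 24.0 CPM in poly(PR) brains and 15.87, 16.26, 15.79 and 13.96 CPM in controls (0.38, SE 0.10, adjusted p = 0.165). Vim, the filament vimentin, had 42.7, 50.5 and 57.2 CPM against 47.3, 36.6, 36.9 and 41.7 CPM (0.31, SE 0.10), and 5 of 7 libraries were above every control. Of 16 homeostatic astrocyte genes 9 were above 0, with a median of 0.02, 3 nominally higher and 2 lower.

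Lists of innate immunity differed in how far they were separated from the controls. Chemokine and NF-kB genes had 9 of 17 nominally higher and 1 lower, with a median of 0.39, and their list level was above all controls in 7 of 7 libraries. The list has 19 members, of which 17 passed the filter on low counts, some only through poly(PR) libraries. In DESeq2, run without that filter, 9 of 19 were nominally higher and 1 lower. Ccl4, a chemokine close to Ccl3, had 0.485, 0.617 and 1.16 CPM in poly(PR) brains and 0.172, 0.329, 0.103 and 0.193 CPM in controls (1.79, SE 0.37, adjusted p = 0.109). The lower gene of the list was Nfkbia, the inhibitor of NF-kB, which glucocorticoids also induce. Complement had 6 of 15 nominally higher and 0 lower: C4b rose to 71.9, 94.8 and 134 CPM in poly(PR) brains, against 37.2 to 60.2 CPM in controls, and C1qa had 52.0, 63.0 and 77.8 CPM against 57.3, 39.3, 43.6 and 56.3 CPM (0.47, SE 0.12, adjusted p = 0.154). C4b shares near-identical sequence with C4a, which leaves its counts uncertain.

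Antigen presentation by MHC class I had 12 of 13 genes above 0 and 5 nominally higher, and interferon-stimulated genes had 22 of 25 above 0 and 2 nominally higher, with medians of 0.31 and 0.24. The 2 of 25 are 8%, near the 7.64% of all genes. Without replicate 6 the nominally higher genes numbered 10 of 13 (76.9%) and 7 of 25 (28%), against 15.1% of protein-coding genes. Controls of higher mitochondrial share exceeded those of lower share by 0.28 for MHC class I, 0.16 for the interferon list and 0.23 for complement. Mx1, an interferon-induced GTPase, had 0.793, 1.20 and 1.53 CPM in poly(PR) brains and 0.721, 0.592, 0.655 and 0.541 CPM in controls (0.88, SE 0.20, adjusted p = 0.118). Control 1 and poly(PR) replicate 6 went against these lists: the interferon list level was 0.22, -0.03, 0.31, 0.36, 0.15, -0.14 and 0.38 in poly(PR) replicates 1 to 7 and 0.27, -0.13, 0.00 and -0.14 in controls. It was above all controls in 3 of 7 libraries. Lymphocyte markers, of which only 6 of 16 passed the filter on low counts, had 3 nominally higher. In DESeq2, run without that filter, 3 of 16 were nominally higher. Cd4, a nominally higher one, had 16.1, 20.6 and 31.0 CPM in poly(PR) brains and 16.9, 16.2, 13.2 and 15.8 CPM in controls (0.49, SE 0.14, adjusted p = 0.184). Lag3, an inhibitory receptor first known from lymphocytes, rose to 10.6, 13.2 and 20.1 CPM, against 9.72, 6.06, 7.07 and 8.78 CPM. MHC class II genes, with 2 of 7 above 0 and a median of -0.41, did not share that direction.

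Neuronal transcripts were lower by small amounts and in nearly all libraries. Of 15 pan-neuronal genes 2 had log2 fold changes above 0, with a median of -0.17, 10 were nominally lower and 0 higher, and 4 had all 7 libraries below all controls, against 1.32% of all genes. Genes at 100 CPM and over had a median of -0.08, with 18.3% nominally lower and 3.82% below all controls. Those of them in the longest span bin had a median of -0.17, with 28.1% nominally lower and 5.28% below all controls. Rbfox3, the nuclear protein NeuN, had 228, 256 and 276 CPM in poly(PR) brains and 283, 294, 290 and 296 CPM in controls (-0.18, SE 0.06, adjusted p = 0.228). Nefm, the medium neurofilament, had 154, 168 and 211 CPM against 232, 231, 230 and 214 CPM (-0.34, SE 0.10, adjusted p = 0.188). Neither gene overlapped between the groups. The summed level of the 15 genes was 9210 to 10050 CPM in poly(PR) brains and 10560 to 11250 CPM in controls. The list level was -0.25, -0.18, -0.11, -0.26, -0.22, -0.12 and -0.17 in poly(PR) replicates 1 to 7 and -0.02, 0.02, 0.01 and -0.01 in controls.

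Excitatory neuron genes, with 6 of 13 nominally lower, had a median of -0.16, while inhibitory interneuron genes, with 11 of 16 above 0 and 1 nominally higher, had a median of 0.10. Slc17a7, the vesicular glutamate transporter, was nominally lower (-0.19, SE 0.06, adjusted p = 0.222), and Neurod6, a transcription factor of excitatory neurons, had 35.1, 39.7 and 55.2 CPM in poly(PR) brains and 50.1, 64.2, 76.4 and 49.1 CPM in controls (-0.53, SE 0.15, adjusted p = 0.179). Npy, a peptide of interneurons, had 57.3, 70.3 and 98.8 CPM against 66.6, 53.4, 55.0 and 70.1 CPM (0.33, SE 0.13). Both overlapped the controls.

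Regional markers also differed. Of 14 striatal genes 14 had log2 fold changes above 0, with a median of 0.47, 12 (85.7%, against 7.64% of all genes) were nominally higher and 0 lower, and 7 (50.0%, against 1.39% of all genes) had all poly(PR) libraries above all controls. Their summed level was 1838 to 2796 CPM in poly(PR) brains and 1575 to 1670 CPM in controls. Adora2a, the adenosine receptor of striatal neurons, had 70.1, 81.8 and 129 CPM against 63.5, 52.7, 50.4 and 55.6 CPM (0.74, SE 0.13, adjusted p = 0.0827), and Rxrg, a retinoid receptor (chromosome 1, 167598384 to 167639623), had 29.7, 39.5 and 52.3 CPM against 31.3, 23.9, 24.4 and 29.5 CPM (0.60, SE 0.10, adjusted p = 0.0731). Adora2a did not overlap between the groups and Rxrg did by 1 control. The list level was 0.19, 0.27, 0.81, 0.47, 0.38, 0.36 and 0.35 in poly(PR) replicates 1 to 7 and 0.06, -0.04, -0.05 and 0.03 in controls, so replicate 3 held the most striatal RNA. Without replicate 6, 9 striatal genes passed the adjustment over all genes, beside 289 higher and 328 lower genes of all 18939. With all 7 poly(PR) libraries 0 striatal genes did.

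Markers of the labelled regions were lower. Dentate gyrus genes had 5 of 12 nominally lower and 0 higher (median -0.30), hippocampal CA field genes 5 of 12 lower (-0.13), and upper-layer cortex genes 5 of 11 lower (-0.16). Deep-layer cortex genes had 1 higher and 3 lower of 12 and a median of 0.05. Tdo2, an enzyme that marks dentate granule cells, had 0.860, 1.01 and 1.37 CPM in poly(PR) brains and 1.92, 1.51, 1.93 and 1.62 CPM in controls (-0.65, SE 0.18, adjusted p = 0.178). Lamp5, a gene of upper cortical layers, had 104, 119 and 132 CPM against 136, 139, 140 and 143 CPM (-0.21, SE 0.07). Neither overlapped between the groups. Thalamus genes had 3 of 12 nominally lower. How far differences in the dissected tissue enter the neuronal and regional results was not tested.

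Other cell types had mixed values. Oligodendrocyte genes had 0 nominally higher and 4 lower of 16 (25%, against 7.31% of all genes). Mal, a myelin protein, led them with 162, 201 and 236 CPM in poly(PR) brains and 244, 241, 247 and 252 CPM in controls (-0.30, SE 0.10, adjusted p = 0.253). Oligodendrocyte precursors, endothelial cells and mural cells had medians of -0.03, 0.02 and 0.02. Within the sets of higher and lower mitochondrial share, the oligodendrocyte difference was -0.23 and 0.10, and that of precursors -0.14 and 0.05. Endothelial cells had -0.09 and 0.16 there, and mural cells -0.04 and 0.22. Choroid plexus genes had a median of -0.35 with 0 nominal calls of 15, and their summed level was 38.6 to 611.8 CPM in poly(PR) brains and 87.1 to 211.8 CPM in controls, the highest in replicate 1. Meningeal, border macrophage and red blood cell lists had medians of 0.06, -0.08 and 0.10 with 1, 1 and 0 nominal calls. Ependymal genes had 0 nominally higher and 2 lower of 12, hypothalamic genes 1 and 1 of 11, and genes of immature neurons and proliferation 2 and 0 of 14.

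**Figure D4:**
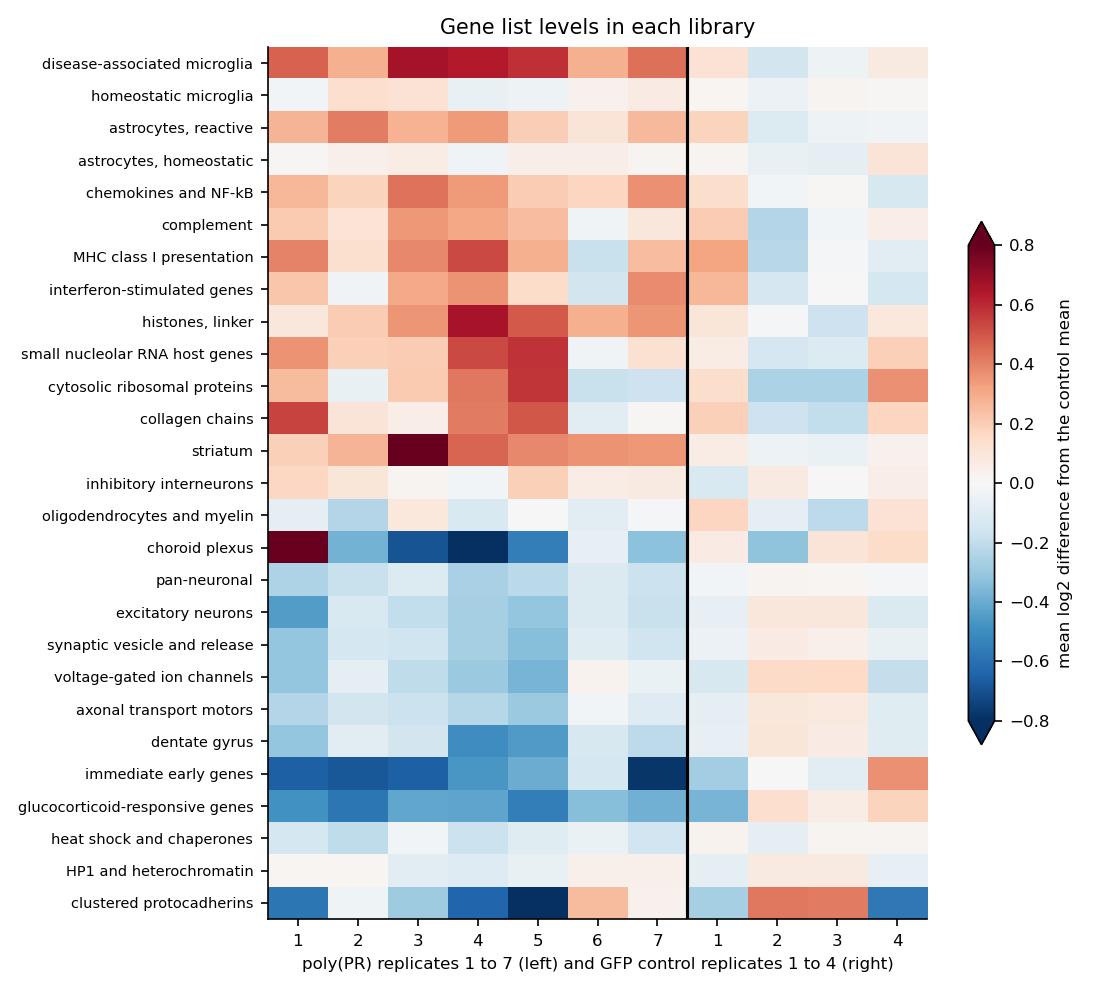
Mean log2 difference from the control mean (colour) of the members of 27 gene lists (rows) in poly(PR) replicates 1 to 7 and GFP controls 1 to 4 (columns, left and right of the line); red is above the control mean and blue below. Disease-associated microglia and striatum lists are above all controls and pan-neuronal and synaptic vesicle lists below all controls in 7 of 7 poly(PR) libraries, while the ribosomal protein and protocadherin lists vary within both groups.

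Activity-dependent genes had lower values in poly(PR) brains. Immediate early genes are transcribed within minutes when neurons fire, from promoters that bind CREB through the cyclic AMP response element and SRF through serum response elements. All 22 of those tested had log2 fold changes below 0, with a median of -0.51, and 14 were nominally lower. Promoters of 4 of them are shown, picked for log2 fold changes among the lowest and for holding the half-site named next. All 4 therefore hold it by selection. Each is the 250 bases before a start annotated by RefSeq on GRCm38.p6, 5′ to 3′ on the gene's strand, with the half-site TGACG of the cyclic AMP response element, or CGTCA, its reverse complement, in capitals; in Btg2 the capitals are the whole palindrome TGACGTCA. Of the 5 starts listed for Egr2, the one shown is the first of 3 that held the most half-sites, and it lies inside the gene's annotated span; the other 3 genes have 1 start each.
Egr2, chr10:67537619-67537868, plus strand: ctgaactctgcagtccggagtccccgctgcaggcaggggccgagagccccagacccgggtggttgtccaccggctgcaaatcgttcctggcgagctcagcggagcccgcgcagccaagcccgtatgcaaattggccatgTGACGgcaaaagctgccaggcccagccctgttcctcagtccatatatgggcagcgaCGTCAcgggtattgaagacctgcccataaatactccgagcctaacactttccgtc
Fos, chr12:85473640-85473889, plus strand: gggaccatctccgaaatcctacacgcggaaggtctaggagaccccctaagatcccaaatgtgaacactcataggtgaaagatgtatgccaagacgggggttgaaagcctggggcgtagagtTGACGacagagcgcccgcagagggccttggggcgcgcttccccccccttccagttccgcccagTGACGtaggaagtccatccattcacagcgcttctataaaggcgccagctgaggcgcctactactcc
Npas4, chr19:4989972-4990221, minus strand: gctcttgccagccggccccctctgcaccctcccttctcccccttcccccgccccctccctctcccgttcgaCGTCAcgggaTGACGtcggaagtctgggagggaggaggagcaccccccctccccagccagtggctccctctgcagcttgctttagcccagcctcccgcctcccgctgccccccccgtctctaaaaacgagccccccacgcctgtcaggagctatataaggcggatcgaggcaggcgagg
Btg2, chr1:134079156-134079405, minus strand: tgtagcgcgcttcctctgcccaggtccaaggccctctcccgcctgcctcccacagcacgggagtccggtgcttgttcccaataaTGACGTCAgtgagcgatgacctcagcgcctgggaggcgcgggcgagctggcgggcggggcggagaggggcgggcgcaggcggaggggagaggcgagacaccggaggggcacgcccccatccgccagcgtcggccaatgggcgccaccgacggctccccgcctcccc

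The half-site, searched on both strands, was in 14 of the 17 immediate early genes that have a promoter in the table (82.4%), against 17.8% of 32851 starts and 19.8% of 27025 genes. TGACGTCA, which contains it, was in 2 of the 17 and in 1.55% of starts. For comparison, 7 of 14 glucocorticoid-responsive genes, 6 of 19 disease-associated microglia genes and 5 of 16 synaptic vesicle genes held the half-site. The motif was chosen after the values were seen, and a match is a run of letters, not a bound site.

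Egr2, a zinc finger factor (ENSMUSG00000037868, chromosome 10, 67535475 to 67542188), had 2.01, 3.47 and 6.17 CPM in poly(PR) brains and 5.77, 9.51, 7.69 and 14.4 CPM in controls (-1.34, SE 0.28, adjusted p = 0.109). Fos, a subunit of the factor AP-1, had 10.05, 12.96 and 24.27 CPM against 20.4, 30.7, 25.2 and 58.1 CPM (-1.16, SE 0.27, adjusted p = 0.126). In both, the groups overlapped by the highest poly(PR) library alone. Npas4, a neuron-specific factor that responds to calcium, had 7.94, 18.9 and 28.5 CPM against 25.7, 31.2, 31.8 and 53.3 CPM (-0.86, SE 0.23), and Btg2, an antiproliferative gene, had 9.829, 14.2 and 19.01 CPM against 18.3, 25.4, 20.5 and 31.9 CPM (-0.74, SE 0.17). Control 4 was the highest library in all 4 genes. The list level was -0.66, -0.68, -0.65, -0.47, -0.40, -0.14 and -0.78 in poly(PR) replicates 1 to 7 and -0.28, 0.00, -0.09 and 0.37 in controls, with replicate 6 alone inside the range of the controls. Without replicate 6, 17 were nominally lower and 6 passed the adjustment over all genes, where 328 of all 18939 genes were called lower. With all 7 poly(PR) libraries 0 of the list passed.

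Glucocorticoid-responsive genes were lower as well, in a list that shares members with the immediate early list, Dusp1 and Per1 among them. Corticosterone, released under stress and by the daily rhythm, induces these genes through its nuclear receptor. Of 15 tested, 2 had log2 fold changes above 0, the median was -0.45, and 11 were nominally lower and 1 higher. In 4 (26.7%, against 1.32% of all genes) all 7 poly(PR) libraries lay below all controls. Sgk1, a kinase (chromosome 10, 21882184 to 21999903), had 46.6, 66.6 and 93.2 CPM in poly(PR) brains and 80.2, 157, 155 and 102 CPM in controls (-0.98, SE 0.19, adjusted p = 0.0930). Tsc22d3, the anti-inflammatory protein GILZ (chromosome X, 140539528 to 140600659), had 63.7, 87.3 and 95.8 CPM against 96.4, 128, 126 and 141 CPM (-0.55, SE 0.12, adjusted p = 0.114). Nfkbia (chromosome 12, 55489410 to 55492647) had 14.1, 18.6 and 19.4 CPM against 22.1, 29.1, 28.7 and 25.8 CPM (-0.58, SE 0.10, adjusted p = 0.0852). Sgk1 overlapped the controls and the other two did not. Pdk4, which restrains glucose oxidation, and Ddit4, an inhibitor of mTORC1, were also separated in all 11 libraries (-0.41, SE 0.10, and -0.39, SE 0.09). The list level was -0.34 to -0.58 in the 7 poly(PR) libraries and -0.37, 0.14, 0.06 and 0.18 in controls 1 to 4: control 1 reached the poly(PR) range. Without replicate 6, 12 were nominally lower and 7 passed the adjustment, where 328 of all 18939 genes were called lower. With all 7 poly(PR) libraries 0 of the list passed. Circadian clock genes had 1 higher and 2 lower of 16, with a median of -0.05.

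Synaptic genes followed the neuronal markers. Of 21 genes of the synaptic vesicle and its release 21 had log2 fold changes below 0, with a median of -0.24, and 11 were nominally lower. Snap25, a SNARE protein of the nerve terminal (chromosome 2, 136713453 to 136782428), had 2303, 2495 and 2618 CPM in poly(PR) brains and 2802, 3155, 3089 and 2774 CPM in controls (-0.27, SE 0.06, adjusted p = 0.114). Stx1a, its partner syntaxin-1A, had 185, 215 and 244 CPM against 272, 247, 250 and 272 CPM (-0.25, SE 0.07, adjusted p = 0.180). The groups did not overlap in either, and the summed level of the list was 12000 to 13730 CPM in poly(PR) brains and 14190 to 15510 CPM in controls. Voltage-gated ion channels had 7 of 21 nominally lower (median -0.15), axonal transport motors 5 of 16 (-0.18), glutamate receptors 2 of 17 (-0.12) and GABA-A receptors 2 of 12 (-0.20), with 0 nominally higher in each. These 4 lists moved with the mitochondrial share among the controls alone, where higher minus lower share was -0.25, -0.22, -0.29 and -0.46, each larger in size than its group median, against 0.00 for the pan-neuronal list and -0.03 for the synaptic vesicle list. Within the sets of higher and lower share poly(PR) minus control was -0.11 and -0.24 for GABA-A receptors and -0.08 and -0.10 for glutamate receptors. Without replicate 6 the lower genes numbered 11, 9, 7 and 8 in the 4 lists. For comparison, all genes in the longest span bin at 100 CPM and over had a median of -0.17, with 28.1% nominally lower. Scn8a, a sodium channel of the axon initial segment, had 330, 342 and 355 CPM in poly(PR) brains and 394, 369, 392 and 364 CPM in controls (-0.15, SE 0.05, adjusted p = 0.261). Kif5a, a kinesin of axons in which mutations cause amyotrophic lateral sclerosis, was nominally lower (-0.24, SE 0.08).

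Stress pathways had no common direction. Heat shock and chaperone genes had 1 nominally higher and 5 lower of 16, with a median of -0.16. Dnajb1, a co-chaperone induced by heat, had 49.2, 50.7 and 60.0 CPM in poly(PR) brains and 60.6, 63.1, 66.7 and 64.3 CPM in controls (-0.26, SE 0.07, adjusted p = 0.179), without overlap. Genes of the unfolded protein and integrated stress response had 4 higher and 4 lower of 17. Ddit3, the stress factor CHOP, had 24.6, 29.6 and 42.6 CPM against 22.2, 16.6, 16.1 and 24.7 CPM (0.72, SE 0.16, adjusted p = 0.114), and Hspa5, the endoplasmic reticulum chaperone BiP, had 153, 173 and 224 CPM against 211, 226, 279 and 209 CPM (-0.37, SE 0.11). The annotation shares 10.9% of the exonic bases of Ddit3 with another gene. Targets of p53 had 2 higher and 3 lower of 13, lysosome genes 5 higher and 0 lower of 20, and cholesterol synthesis 0 higher and 5 lower of 15.

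Histone genes that passed the filter on low counts, 5 of 8 linker and 14 of 54 clustered core genes, were mostly higher. Of 5 linker histone genes 5 had log2 fold changes above 0 and 3 were nominally higher, and of 14 clustered core histone genes 12 were above 0 and 5 nominally higher, with medians of 0.29 and 0.33. In DESeq2, run without that filter, 5 of 8 linker and 32 of 47 core genes were above 0. There 5 core genes were nominally higher and 1 lower. The list level was above all controls in 6 of 7 poly(PR) libraries for linker and 5 of 7 for core histones. Hist2h2be had 9.99, 11.97 and 14.3 CPM in poly(PR) brains and 8.59, 9.05, 9.83 and 9.63 CPM in controls (0.39, SE 0.10, adjusted p = 0.154). Hist1h1c, described above, was the one that passed the adjustment. Near-identical copies within the family leave the counts of single histone genes uncertain. Collagen chains had 36 of 44 above 0, with a median of 0.22, 9 nominally higher and 1 lower, and without replicate 6 18 were higher. Controls of higher mitochondrial share exceeded those of lower share by 0.40 in collagen chains and by 0.24 in core histones. The median difference of the collagen chains from the control mean was 0.53, 0.15, 0.06, 0.48, 0.53, -0.13 and 0.05 in poly(PR) replicates 1 to 7 and 0.18, -0.22, -0.19 and 0.18 in controls.

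The systems named in the title showed no nominal difference or few. Of 24 genes of HP1 and heterochromatin 11 had log2 fold changes above 0, the median was -0.02, and 0 were nominal. Cbx5, which encodes HP1α, had 160, 210 and 256 CPM in poly(PR) brains and 204, 264, 272 and 187 CPM in controls (-0.21, SE 0.15, adjusted p = 0.458). Trim28, the co-repressor that recruits HP1 proteins, had 139, 140 and 144 CPM against 135, 132, 119 and 136 CPM (0.11, SE 0.06), and Morc2a, a silencing ATPase, had 54.1, 58.4 and 67.2 CPM against 53.8, 54.0, 53.4 and 53.1 CPM (0.14, SE 0.07). These 2 genes were separated in all 11 libraries by small margins and neither was nominal. Nuclear lamina genes had 0 higher and 2 lower of 15, double-stranded RNA sensing and editing 0 and 2 of 18, nuclear pore and transport 0 and 0 of 21, and C9orf72-complex and disease genes 0 and 3 of 22. C9orf72 itself had 19.3, 24.0 and 26.0 CPM in poly(PR) brains and 21.9, 28.1, 27.3 and 22.2 CPM in controls (-0.13, SE 0.10). Splicing factors had 0 nominal of 24, the nucleolus and RNA polymerase I 2 higher and 0 lower of 17, stress granules 0 and 4 of 14, and the proteasome 0 and 0 of 22. Among housekeeping and other sets, translation factors had 0 higher and 1 lower of 18, tRNA synthetases 1 and 0 of 18, glycolysis 0 and 3 of 15, the DNA damage response 0 and 0 of 17 and imprinted genes 2 and 2 of 21. Zinc finger genes had 17 higher and 18 lower of 359, solute carriers 21 and 26 of 275, and keratins with olfactory and vomeronasal receptors 3 and 3 of 36. Without replicate 6 the heterochromatin list had 1 nominally higher (4.17%) and 7 lower (29.2%), against 15.1% and 19.4% of protein-coding genes.

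Gene families that encode abundant short transcripts moved with the mitochondrial share. All 80 cytosolic ribosomal protein genes had log2 fold changes above 0, with a median of 0.21, and 1 was nominal, but 42 were without replicate 6. Their list level was 0.26, -0.06, 0.21, 0.42, 0.57, -0.18 and -0.17 in poly(PR) replicates 1 to 7 and 0.14, -0.26, -0.25 and 0.37 in controls. The median difference was 0.17 within the libraries of higher mitochondrial share and 0.21 within those of lower share, and controls of higher share exceeded controls of lower share by 0.52. Clustered protocadherins, genes of neuronal identity, ran the other way: 1 of 53 was above 0, the median was -0.39, 3 were nominal (31 without replicate 6), and the same differences were -0.25, -0.44 and -0.81. Mitochondrial ribosomal proteins had 68 of 77 above 0 and 9 nominally higher, and nuclear genes of oxidative phosphorylation 67 of 82 and 1, against 31 and 21 nominally higher without replicate 6. In these families the range of the list level over the 4 controls was larger than the median difference between the groups.

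Repeat elements showed little. Of 975 repeat subfamilies tested 0 passed the adjustment (0.0%) in edgeR and 0 in DESeq2, and 28 were nominal (2.87%), 7 higher (0.718%) and 21 lower (2.15%). MuRRS4-int, an internal sequence of an ERV1 endogenous retrovirus, was the 1 subfamily (0.103%) with all poly(PR) libraries beyond the controls. It had 64.0, 73.5 and 78.3 CPM in poly(PR) brains and 80.5, 89.5, 88.9 and 89.8 CPM in controls (-0.25, SE 0.08, adjusted p = 0.969). LINE subfamilies had 85 of 140 log2 fold changes above 0, LTR 338 of 574, SINE 21 of 36 and DNA transposons 74 of 172, with medians from -0.02 to 0.03. Satellites, the repeats of constitutive heterochromatin, had 4 of 5 above 0 and 0 nominal, and their summed level was 2336 to 2842 CPM in poly(PR) brains and 2378 to 2917 CPM in controls (log2 ratio -0.06, p = 0.430 by the exact permutation test, 0.994 after adjustment over the classes).

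Ribosomal RNA took a smaller share of repeat reads in 6 of the 7 poly(PR) libraries than in any control. That share was 35.3%, 34.8%, 35.3%, 35.9%, 36.1%, 43.3% and 34.4% in poly(PR) replicates 1 to 7 and 46.09%, 40.03%, 43.25% and 45.31% in controls (p = 0.0182 by the exact permutation test, two-sided, and 0.0848 after adjustment over the library measures). The share of reads ambiguous between genes was 6.83% to 7.30% in 6 poly(PR) libraries, 8.32% in replicate 6 and 7.63% to 8.53% in controls (p = 0.0242 by the same exact test, 0.0848 after adjustment). Replicate 6 lay among the controls in both, and without it both had an adjusted p of 0.0333 in the same exact permutation test. Leaving out the only overlapping library sets the groups fully apart. The test then gives its smallest possible p by construction, which adds no support. The protocol names total RNA and the molecule label polyA RNA, and the amount of rRNA in the tissue and its removal during library preparation cannot be told apart here. The bearing of the rRNA share on the gene results was not tested.

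**Figure D5:**
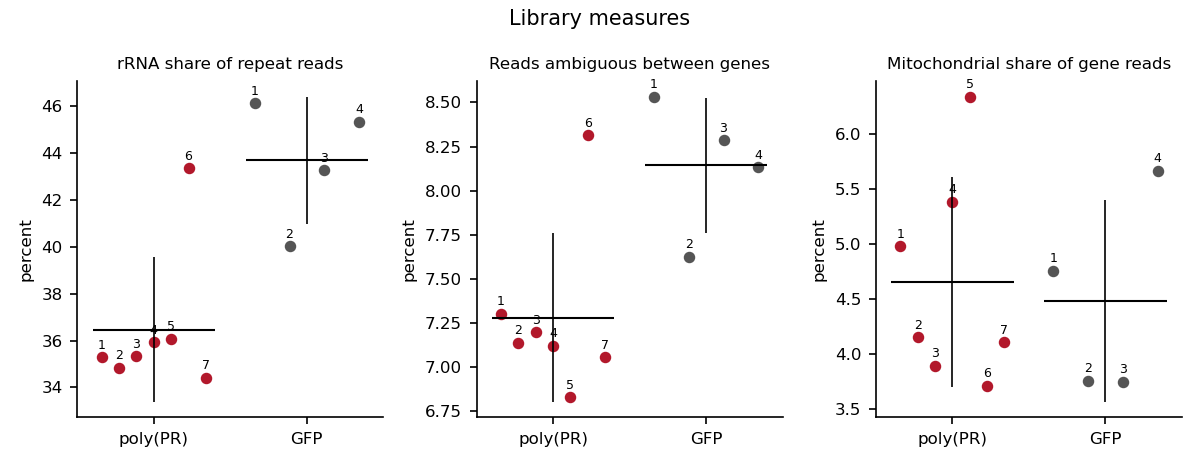
Percentage of repeat reads on rRNA (left), of reads ambiguous between genes (middle) and of gene reads on mitochondrial genes (right) in each library; points are numbered by replicate, horizontal lines are group means and vertical lines 1 SD, and the axes do not start at 0. Replicate 6, at 43.3% and 8.32%, lies among the GFP controls in the first 2 panels, and the mitochondrial share runs from 3.72% to 6.34% in poly(PR) and 3.75% to 5.66% in GFP brains.

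The poly(GR) brains and their own controls share no library with these. The difference between the poly(PR) and poly(GR) effects passed the adjustment for 0 of 19863 genes (0.0%) in edgeR's quasi-likelihood test, with 1066 nominal (5.37%; 3.22% higher and 2.14% lower with poly(PR)), and for 8 in DESeq2. In poly(GR) brains against their controls 6.23% of genes were nominally higher and 5.25% lower. Of the 266 genes with all poly(PR) libraries above their controls 253 were tested there, and 197 (77.9%) had a log2 fold change above 0 with poly(GR), against 51.0% of all genes; 71 were nominally higher and 2 lower. Of the 253 with all libraries below, 250 were tested and 208 were below 0, with 62 nominally lower and 0 higher. Striatal genes had medians of 0.47 with poly(PR) and 0.34 with poly(GR), and disease-associated microglia genes 0.40 and 0.27. Immediate early genes had -0.51 with poly(PR) and 0.11 with poly(GR), and 7 of the 22 had a nominally lower difference. Egr2, for example, had a log2 fold change of -1.34 with poly(PR) and 0.54 with poly(GR), a difference of -1.77 (SE 0.52, adjusted p = 0.786). The tier at 100 CPM and over had medians of -0.08 and -0.02. Tcf24 had log2 fold changes of 2.57 with poly(PR) and -0.16 with poly(GR), and the difference of 2.78 (SE 0.42) had an adjusted p of 0.0573.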

How the data were processed

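Reads per gene and per repeat subfamily were measured in 11 libraries of the poly(PR) cohort and 8 of the poly(GR) cohort. The deposited tables hold whole-number counts that the authors did not normalize. The submitters' processing notes list STAR 2.5.2b and Trimmomatic 0.36, with the builds mm9 and mm10. The sources used here do not give the annotation release, the counting settings or the role of each build. The labels name a stranded kit, but reads split evenly between the strands where both were counted, so the counts used keep no strand and overlapping genes share reads. Rows without a gene were kept out of totals and tests; reads on no gene were 9.30% to 13.4% of the total and ambiguous reads 6.83% to 8.53%. Of 53801 gene IDs 53706 had an entry in GENCODE M21 on GRCm38, the source of symbols, biotypes and coordinates.

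The test for genes was the quasi-likelihood test of edgeR 4.0.16 under R 4.3.3 (filterByExpr, TMM scaling after the filter, sex as a covariate, Benjamini-Hochberg adjustment at 0.05), within the poly(PR) cohort for its own contrast and over all 19 libraries for the difference of effects. Repeats were tested in the same way with library sizes from the genes. CPM values are scaled by TMM. List levels are means of log2(CPM + 0.5). For library measures an exact permutation test, two-sided, was run over 330 regroupings, whose smallest p is 0.00303. Groups and sex came from the labels and replicate numbers follow accession order. The labels call the samples separate mice, and no pair of libraries of 1 group agreed within sampling noise. Intervals and p-values cover the spread between these libraries. Alternatives included DESeq2 1.42.0, other scaling and filters, no sex term, female libraries, and leaving out each library. The fits were tested on simulated counts.

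Named genes were up to 4 per expression tier and direction with the smallest p among those separated in all 11 libraries, up to 2 per other biotype and direction, up to 3 members per list and the called genes. Names picked with their values in view include Itgax, Trem2, Tyrobp, Fos, Npas4, Rbfox3, Pdk4, Ddit4, Lamp5, Cbx5 and C9orf72. The 69 gene lists, the comparison and its members were chosen with earlier results of these data known, so lists are described by counts and medians without tests. Promoter sequences came from RefSeq. Some called genes are left out of the text.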

Additional observations from a re-analysis of the deposited data

Results flagged for a closer look

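Of 266 groups of values examined, 15 had 1 library far from the rest of its group by Dixon's criterion, and chance flags about 1 group in 20. Poly(PR) replicate 6 stood apart in the rRNA share of repeat reads, at 43.3% against 34.4% to 36.1% in the other 6, and in the share of ambiguous reads, at 8.32% against 6.83% to 7.30%. Poly(PR) replicate 4 had 13.4% of reads on no gene against 9.30% to 11.1% in its group, and control 2 had 9.97% against 10.9% to 11.1%. In repeat class totals, replicate 4 was highest in SINE (113200 CPM), RNA (152 CPM) and the class named Other (748 CPM), and control 3 was highest of its group in SINE (103700 CPM).

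Among genes, C4b was at 134 CPM in poly(PR) replicate 4 against 71.9 to 97.2 CPM in the other 6, and Xirp2 at 0.954 CPM in control 2 against 0.851 to 0.862 CPM in the other 3. Among list levels, replicate 3 was the highest of the poly(PR) libraries in hypothalamus genes (0.59) and lysosome genes (0.21). Replicate 4 was the lowest of them in the C9orf72-complex and disease genes (-0.11). Control 1 was the highest of the controls in meningeal genes (0.50) and control 2 the lowest of them in heat shock genes (-0.075). The causes of these values were not tested.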

How the results depend on the processing

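Adjusted calls among genes, 11 as reported, numbered 355 with DESeq2, 188 with all 19 libraries in one fit, 69 without a filter on low counts, 7 with TMM before the filter, 4 without the sex term, 0 in female libraries alone and 0 to 617 when 1 library was left out. Nominally higher and lower genes numbered 584 and 414 in female libraries, and 777 to 2661 and 567 to 3234 with 1 library left out. The lowest counts came without control 2 and the highest without poly(PR) replicate 6. The median log2 fold change at 10 to 100 CPM, -0.01 as reported, was 0.006123 with TMM before the filter and 0.006117 with no filter. In the 3rd bin of gene span, also -0.01, it was -0.02115 with DESeq2's size factors in edgeR, -0.02248 with DESeq2, 0.006295 with TMM before the filter, 0.006296 with no filter and 1.466e-05 within the libraries of higher mitochondrial share. The other tiers and bins kept their sign in all of these.

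Repeat subfamilies called numbered 0 to 1 with 1 library left out, those nominally higher 14 and 16 with scaling from repeat counts without and with rRNA and 2 to 44 with 1 library left out, and those lower 9 to 51. Genes whose poly(PR) and poly(GR) effects differed numbered 8 with DESeq2, 1 with no filter and 0 to 3 with 1 library left out. With 1 library left out, the log2 ratio was -0.02741 to 0.1709 for the mitochondrial share, -0.3044 to -0.2356 for the rRNA share, -0.1954 to -0.1404 for the ambiguous share and -0.005785 to 0.05452 for the share of long non-coding RNAs, and 0 to 2 library measures passed. Among named genes the hemoglobin genes turned below 0: Hbb-bs at -0.04776 and Hba-a2 at -0.003877 in female libraries, and, with 1 library left out, Hbb-bs at -0.04406 to 0.213 and Hba-a2 at -0.02512 to 0.2192. No paired analysis was possible because replicate numbers follow accession order and pair no mice. The 4 controls, 1 of them male, limit the precision of every difference. The cause of these shifts was not tested.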
